A study of Bos taurus with 12 samples.

Results

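BOLA-DQB (ENSBTAG00000021077) and the unnamed protein-coding gene ENSBTAG00000047029 are 2 of the 27607 genes in a table of RNA-seq read counts from the peripheral white blood cells (PWBCs) of beef heifers. Both were selected on their counts in these same libraries, which differed widely between fertile and subfertile heifers, so the levels below are a description and carry no test. Of the 27607 genes, 13012 passed the filter on low counts, and both genes passed it. BOLA-DQB did so through libraries of both groups, and ENSBTAG00000047029 had at least 55 reads in each of the 12 libraries.

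The samples came from 12 Simmental-Angus crossbred heifers, of which 6 were fertile and 6 subfertile, and each gave 1 library. Fertile heifers are those labelled Pregnant, which conceived to their first artificial insemination (AI). Subfertile heifers are those labelled Open, which did not become pregnant to AI or to natural service afterwards. All heifers of both groups underwent the same estrus synchronization, the 7-Day CO-Synch protocol with a progesterone insert (CIDR), and blood was drawn from the jugular vein 2 days before AI. The reproductive tract score was 4 in 5 heifers and 5 in 1 heifer of each group, and the heifers scored 5 are named here fertile 2 and subfertile 1. The labels give no age for single heifers. PWBCs are a mixture of lymphocytes, monocytes and granulocytes, so that in these bulk libraries fewer cells of a type and less RNA per cell cannot be told apart.

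Molecules of the major histocompatibility complex (MHC) class II are pairs of an alpha and a beta chain that hold peptides at the cell surface and show them to CD4+ T cells. They are carried mainly by B cells, monocytes and dendritic cells. In cattle the MHC is called BoLA, and BOLA-DQB encodes a beta chain of the DQ molecule, whose alpha chains are encoded by the BOLA-DQA genes. The bovine DQ genes are known to be very polymorphic and to differ in copy number between haplotypes, and they resemble each other closely in sequence. Reads were counted against a single reference assembly, so reads from near-identical class II copies may be assigned to another copy or to none, and the values of BOLA-DQB and of the other class II identifiers are uncertain in that respect. No function is known here for ENSBTAG00000047029, which carries no symbol in the tables used.

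Library totals ran from 14010736 to 21278761 reads, and between 15625 and 16323 genes had at least 1 read per library. Values are CPM, the reads on a gene brought to a common library total, on library sizes scaled by the trimmed mean of M values (TMM), and 95% intervals are exact Poisson intervals, which cover counting error only, as do the floors given for libraries without reads.

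BOLA-DQB was at 333 to 413 CPM in 4 fertile heifers and at 0 to 20.6 CPM in the other 8 heifers. Its counts in fertile 1 to 6 were 2, 4437, 5676, 7835, 8577 and 8, which correspond to 0.106, 333, 344, 387, 413 and 0.483 CPM. Its counts in subfertile 1 to 6 were 442, 0, 211, 0, 28 and 61, which correspond to 20.6, 0, 11.5, 0, 1.62 and 3.28 CPM. The groups overlapped, because fertile 1 and fertile 6 lay below 4 of the subfertile libraries. The mean was 246 ± 193 CPM (SD, n = 6) in fertile heifers, with a median of 339 CPM, and 6.17 ± 8.27 CPM (SD, n = 6) in subfertile heifers, with a median of 2.45 CPM. The log2 fold change (log2FC) of subfertile against fertile heifers in edgeR was -5.28 (SE 1.47). Without subfertile 1, which had the highest level of the subfertile group, it was -6.17. With voom it was -4.53 with an SE of 4.70, larger than the difference itself.

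**Figure D1:**
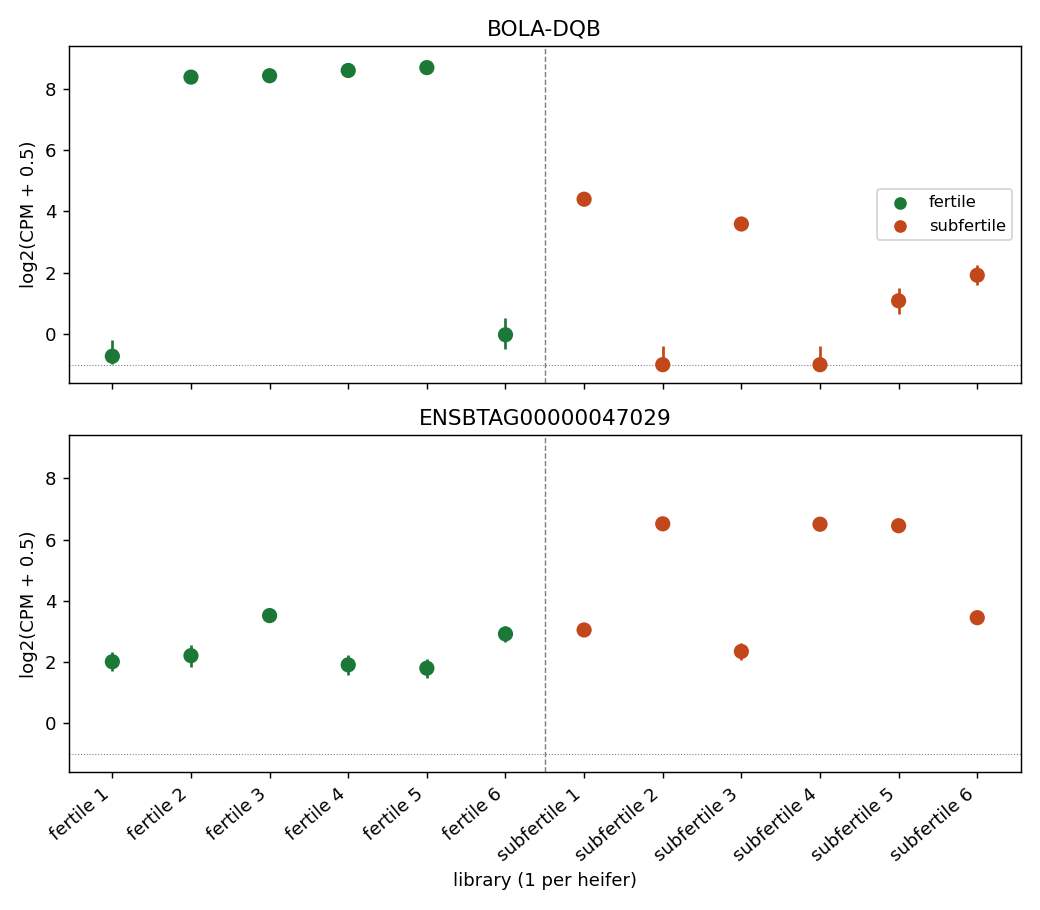
Level of BOLA-DQB and of ENSBTAG00000047029 as log2(CPM + 0.5) in each of the 12 libraries, with green points for fertile and orange points for subfertile heifers, vertical bars for 95% Poisson intervals, a dashed line between the groups and a dotted line at 0 CPM. For BOLA-DQB 4 fertile libraries stand above all others, and for ENSBTAG00000047029 3 subfertile libraries do.

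A description of BOLA-DQB as on or off leaves out that the 8 lower libraries were spread from 0 to 20.6 CPM. To place a boundary by one rule for every gene, the libraries were ordered by log2(CPM + 0.5) and the widest step between neighbours was taken. For BOLA-DQB this step was 3.98 log2 units wide, between 20.6 CPM in subfertile 1 and 333 CPM in fertile 2, a 16.2-fold difference. Above it were fertile 2, 3, 4 and 5 and no subfertile library. These 4 libraries differed among themselves by 1.24-fold, from 333 CPM (95% interval 324 to 343) to 413 CPM (95% interval 405 to 422). Only 8 of the genes tested (0.0615%), BOLA-DQB among them, had a step this wide, against a median of 0.27 and a 95th percentile of 0.89 log2 units over all genes tested.

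Below the step the values formed no single level. The next widest step, 1.67 log2 units, lay between 3.28 CPM in subfertile 6 and 11.5 CPM in subfertile 3, and the one after it, 1.11 log2 units, between 0.483 CPM in fertile 6 and 1.62 CPM in subfertile 5. The 4 higher of these 8 libraries had between 1.62 and 20.6 CPM and were subfertile. Their order was subfertile 5, 6, 3 and 1, and neighbours in that order had intervals that did not overlap, with 1.08 to 2.34 CPM in subfertile 5 and 2.51 to 4.21 CPM in subfertile 6. The 4 lowest libraries, fertile 1, fertile 6, subfertile 2 and subfertile 4, were under 1 CPM, a line drawn after the values had been seen and used below only to name them. Fertile 1 had 2 reads (95% interval 0.0128 to 0.381 CPM) and fertile 6 had 8 reads (95% interval 0.209 to 0.952 CPM). Subfertile 2 and subfertile 4 had 0 reads, for which the floor of 3 counts is 0.214 and 0.213 CPM. The 4 libraries above the step were thus at least 1556-fold higher than the floor of these libraries. Under 1 CPM were thus 2 of 6 fertile and 2 of 6 subfertile heifers. A line at the 1.67 step instead would put 2 fertile and 4 subfertile heifers on its lower side.

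ENSBTAG00000047029 was high in 3 subfertile heifers and lower in the other 9 heifers, and it had reads in all 12. Its counts in fertile 1 to 6 were 67, 55, 181, 66, 62 and 117, which correspond to 3.54, 4.13, 10.965, 3.26, 2.99 and 7.07 CPM. Its counts in subfertile 1 to 6 were 167, 1272, 84, 1265, 1503 and 194, which correspond to 7.78, 90.8, 4.596, 90.0, 86.98 and 10.4 CPM. The other 3 subfertile libraries lay within the range of the fertile group. The mean was 5.33 ± 3.14 CPM (SD, n = 6) in fertile heifers, with a median of 3.83 CPM, and 48.4 ± 44.8 CPM (SD, n = 6) in subfertile heifers, with a median of 48.7 CPM. No subfertile library lay near the subfertile median, since the values on either side of it were 10.4 and 86.98 CPM. The log2FC was 3.19 (SE 0.74).

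Because no library was without reads, the levels of ENSBTAG00000047029 are better named high and low than on and off. Its widest step was 2.93 log2 units, between 10.965 CPM in fertile 3 and 86.98 CPM in subfertile 5, a 7.93-fold difference. A step this wide was found in 17 of the genes tested (0.131%). The 3 high libraries, subfertile 2, 4 and 5, were within 1.04-fold of each other, and their intervals of 85.9 to 96.0, 85.1 to 95.1 and 82.6 to 91.5 CPM overlapped. The 9 low libraries differed by 3.67-fold, so that the spread was wider among the low libraries than among the high ones. Subfertile 6 (95% interval 9.02 to 12.01 CPM) and fertile 3 (95% interval 9.43 to 12.7 CPM), the highest of the low libraries, did not differ beyond their counting error.

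Of the 13012 genes tested, 182 (1.40%) were called in edgeR at an unadjusted P of 0.05 or less and an absolute log2FC of 0.5 or more, which were 86 higher (0.661%) and 96 lower (0.738%) in subfertile heifers. BOLA-DQB was among the lower and ENSBTAG00000047029 among the higher genes, which the choice of both genes fixed. With voom BOLA-DQB did not pass this call rule, and it passed under the other 5 alternatives that tested it and in all 12 fits without 1 library. After Benjamini-Hochberg adjustment in the same edgeR test 0 genes reached 0.05, against 341 at an unadjusted P of 0.05 or less. The smallest adjusted P of that edgeR test over all genes was 0.9998, so this value, where given below, sets no gene apart from the others. The tagwise dispersion, edgeR's measure of the variation between heifers beyond counting, was 2.76 for BOLA-DQB, rank 5 from the top among genes tested, and 0.601 for ENSBTAG00000047029, rank 232, against a median of 0.0503. With a reproductive tract score of 5, fertile 2 was above the widest step of BOLA-DQB, at 333 CPM, and subfertile 1 below it, at 20.6 CPM. Both were low in ENSBTAG00000047029.

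**Figure D2:**
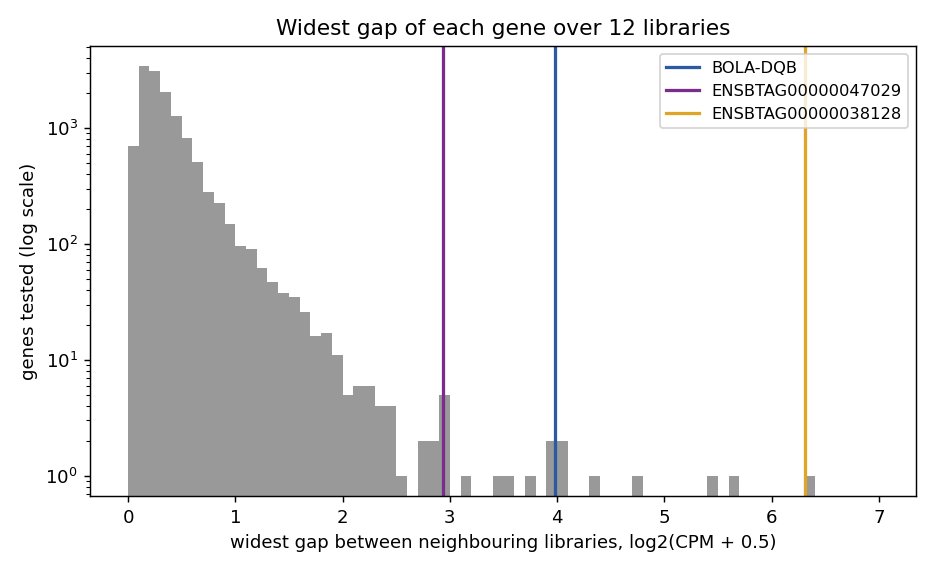
Widest step between neighbouring libraries for the 13012 genes tested, in log2(CPM + 0.5) units, with the number of genes per bin on a log axis and vertical lines for 3 genes. These are BOLA-DQB at 3.98, ENSBTAG00000047029 at 2.93 and the class II identifier ENSBTAG00000038128 at 6.31, against a median of 0.27 over all genes.

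The 2 genes were set against each other library by library. No library was above the widest step of both genes. All 4 libraries above that of BOLA-DQB, fertile 2, 3, 4 and 5, were low in ENSBTAG00000047029. Of the 3 libraries high in ENSBTAG00000047029, subfertile 2 and subfertile 4 had 0 reads on BOLA-DQB, and subfertile 5 had 28 reads. A level of BOLA-DQB below its widest step did not go with a high level of ENSBTAG00000047029 in every heifer. Fertile 1 and fertile 6 were under 1 CPM for BOLA-DQB and low in ENSBTAG00000047029, at 3.54 and 7.07 CPM. Subfertile 1, 3 and 6 had 3.28 to 20.6 CPM of BOLA-DQB and were also low in ENSBTAG00000047029. Both genes were chosen for a group difference of opposite sign, and libraries at opposite levels are in part what that choice brings.

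**Figure D3:**
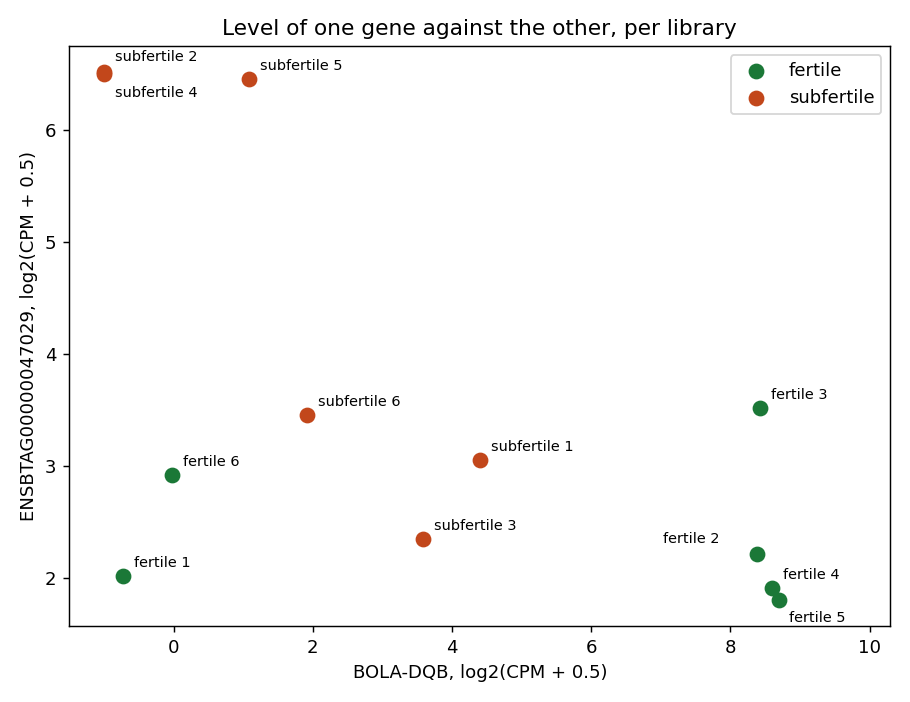
Level of ENSBTAG00000047029 against that of BOLA-DQB in each of the 12 libraries, both as log2(CPM + 0.5), with the name of the library beside each point and green for fertile and orange for subfertile. The 4 libraries with the most BOLA-DQB lie at the lower right, the 3 with the most ENSBTAG00000047029 at the upper left, and no library is high in both.

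To see whether other class II genes had the same levels, 36 class II symbols were looked up, and only BOLA-DOA (ENSBTAG00000006490) besides BOLA-DQB had an identifier in the tables used. BOLA-DOA encodes the alpha chain of DO, a class II protein inside the cell that modulates peptide loading and is found mostly in B cells. The fertile mean was 230 ± 25.7 CPM and the subfertile mean 205 ± 47.6 CPM (SD, n = 6 each), and its 12 libraries lay between 162 and 268 CPM. Its log2FC was -0.16 (SE 0.14), with an edgeR adjusted P of 0.9998, and it was not called. The mean difference of its log2 CPM was -0.19 (two-sided exact permutation test over 924 allocations, P = 0.221, smallest possible 0.00216). Of the 4 libraries with BOLA-DQB under 1 CPM, fertile 1 had 211 CPM and fertile 6 205 CPM of BOLA-DOA, the lowest of the fertile group. Subfertile 2 had 163 CPM and subfertile 4 162 CPM, the lowest of all 12. Fertile 2, above the widest step of BOLA-DQB, had 213 CPM of BOLA-DOA (95% interval 205 to 221). It did not differ from fertile 1 (95% interval 205 to 218) beyond counting error.

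Further class II identifiers were sought through KEGG, whose pathway lists of this study place 5 identifiers under every one of the 7 pathways that list BOLA-DQB. Besides BOLA-DQB they are BOLA-DOA, ENSBTAG00000019588, ENSBTAG00000037605 and ENSBTAG00000038128, and the last 3 carry no symbol there. These lists were drawn from the same samples and are no independent evidence of a direction. None of these 4 other identifiers was called. For ENSBTAG00000019588 the fertile mean was 1229 ± 320 CPM and the subfertile mean 1004 ± 307 CPM (SD, n = 6 each), with a log2FC of -0.29. For ENSBTAG00000037605 these means were 1104 ± 320 and 787 ± 118 CPM (SD, n = 6 each), with a log2FC of -0.49 (SE 0.18), and leaving out each of the 12 libraries in turn, it was called 6 times. Both were abundant in all 12 libraries, including those without BOLA-DQB reads. Of 18 identifiers other than BOLA-DQB listed under antigen processing and presentation, all were tested and 0 were called, against 1.40% called among all genes tested, a share so low that 0 of 18 sets these genes apart in no way, and their median log2FC was -0.50 against 0.0076 over all genes tested.

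By Spearman rho over the 12 libraries, ENSBTAG00000038128 was the gene most like BOLA-DQB (rho 0.91), and it was also first by Pearson r and with library size alone. It was second without fertile 2, without fertile 4 and without subfertile 4, and first without each of the other 9 libraries. Its counts in fertile 1 to 6 were 0, 3746, 4915, 8124, 7250 and 0, which correspond to 0, 281, 298, 402, 349 and 0 CPM. Its counts in subfertile 1 to 6 were 843, 0, 780, 0, 2934 and 836, which correspond to 39.3, 0, 42.7, 0, 170 and 44.97 CPM. It was present in 4 libraries of each group and without reads in fertile 1, fertile 6, subfertile 2 and subfertile 4. These 4 were exactly the libraries in which BOLA-DQB was under 1 CPM. That line was drawn after the values had been seen, and this gene was picked for its likeness to BOLA-DQB. The match is in part what these choices bring. Among the genes tested, 29 (0.223%) had these 4 libraries as their 4 lowest. Its widest step, 6.31 log2 units between the libraries at 0 and subfertile 1, was the widest of all 13012 genes, and subfertile 1 was at least 183-fold higher than the floor of 3 counts. Here the on and off description holds, and the off state was as frequent in fertile as in subfertile heifers.

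The fertile and subfertile means of ENSBTAG00000038128 were 222 ± 177 and 49.5 ± 62.5 CPM (SD, n = 6 each), with a log2FC of -2.16 (SE 1.42), and it was not called. Without subfertile 5, its highest subfertile library, the log2FC was -3.12, and with voom it was -1.04 (SE 3.42), and it was called in 0 of the 18 alternatives that tested it.

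**Figure D4:**
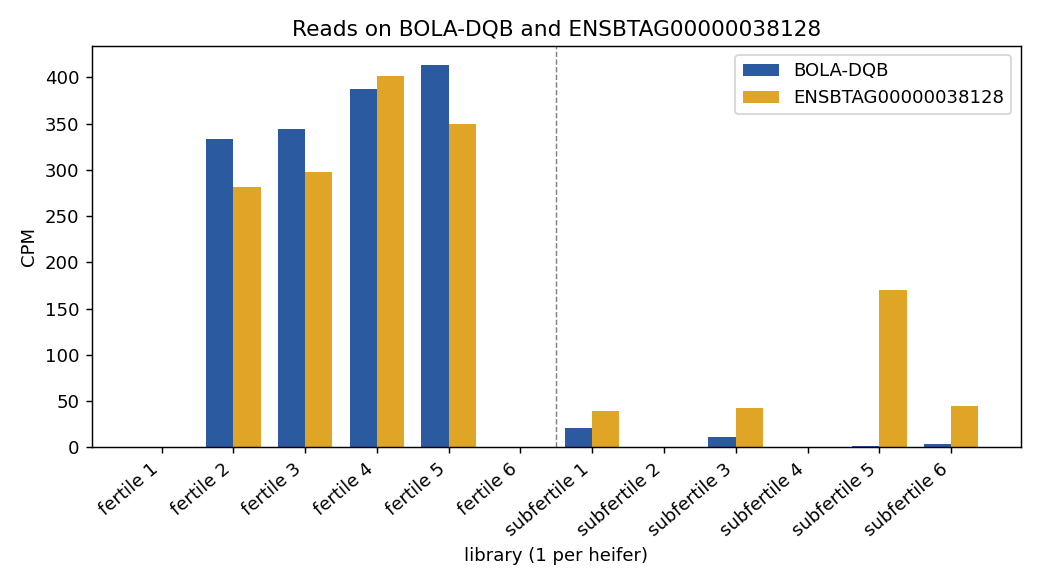
CPM of BOLA-DQB and of the class II identifier ENSBTAG00000038128 as paired bars on a linear axis from 0 in each of the 12 libraries, with a dashed line between the groups. Both genes are at or near 0 in fertile 1, fertile 6, subfertile 2 and subfertile 4, close to each other in fertile 2 to 5, and apart in the remaining subfertile libraries.

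The ratio of both genes' reads within a library does not depend on its depth, and over the 8 libraries with reads on ENSBTAG00000038128 its highest and lowest values were 124-fold apart, or 16.2-fold without subfertile 5. Gene lengths were not used here, so the ratio is compared between libraries and is no comparison of the levels of both genes. In fertile 2, 3, 4 and 5 there were 1.18, 1.15, 0.964 and 1.18 BOLA-DQB reads per read of ENSBTAG00000038128. In subfertile 1, 3, 5 and 6 there were 0.524, 0.271, 0.00954 and 0.0730. Fertile 1 and fertile 6 had 2 and 8 reads on BOLA-DQB and 0 on ENSBTAG00000038128, and subfertile 2 and subfertile 4 had 0 on both, so they give no ratio. Of the 8 libraries with a ratio, the 4 fertile ones had higher values than the 4 subfertile ones. As a share of the reads of both genes, BOLA-DQB held 49.1% to 54.2% in fertile 2 to 5 and 34.4%, 21.3%, 0.945% and 6.800% in subfertile 1, 3, 5 and 6. Subfertile 5 had 2934 reads on ENSBTAG00000038128 beside 28 on BOLA-DQB, and it was also the only library with reads on ENSBTAG00000038128 that was high in ENSBTAG00000047029. The ratio was looked at after the values had been seen and rests on BOLA-DQB itself, so it was not tested.

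The lists of other genes were read for cells and steps that use class II. A further 11 lists held 118 symbols, of which 33 had an identifier among the genes tested. The names come from tables of genes that the study selected, and 82.4% of called genes had a name against 22.4% of all genes tested. The share called among named genes is therefore not to be read against that of all genes. Of the 2909 named genes tested 150 were called, and of the 33 genes on these lists 4 were called, 1 higher and 3 lower. Calls this few are not read as a result about any list. Of the 6 tested genes for class II regulation and peptide handling (RFXANK, NFYA, NFYC, CTSS, CTSH and MARCHF8) 0 were called, and of the 3 for class I presentation (TAP1, TAP2 and TAPBP) 0 were called. The summed level of the class II handling genes was 538 to 770 CPM in fertile and 562 to 766 CPM in subfertile heifers.

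Among markers of the cells that carry class II, 1 of 2 tested B cell genes was called lower in subfertile heifers, 0 of 5 monocyte genes and 0 of 2 dendritic cell genes were called. PAX5, the transcription factor that maintains B cell identity, had a log2FC of -0.51 (SE 0.24, edgeR adjusted P 0.9998) and was called 4 times when each of the 12 libraries was left out in turn. It was not called with RLE size factors, with library size alone or with the reproductive tract score in the model. CD79A, a signalling chain of the B cell receptor, was not called, with a log2FC of -0.15. The summed B cell level was 367 to 750 CPM in fertile and 395 to 714 CPM in subfertile heifers. Summed monocyte genes were at 179 to 695 CPM in fertile and 193 to 663 CPM in subfertile heifers, and summed dendritic cell genes at 28.96 to 45.9 and 26.4 to 59.0 CPM. None of these levels was at or near 0 in any library, and their part in the levels of BOLA-DQB was not tested.

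Of the lists for other cells in blood, 0 of 3 T cell, 0 of 2 neutrophil and 0 of 3 platelet genes were called. The platelet genes ITGA2B, GP9 and TUBB1 had a median log2FC of -1.09, with a summed level of 429 to 7983 CPM (median 1931) in fertile and 410 to 2646 CPM (median 1092) in subfertile heifers. Fertile 6, at 7983 CPM, stood apart from the other fertile libraries, whose highest sum was 2361 CPM, and its BOLA-DQB level was 0.483 CPM. Fertile 1, with BOLA-DQB at 0.106 CPM, had the lowest platelet sum of the fertile group, 429 CPM. GZMB, a granule protease of cytotoxic lymphocytes and 1 of 3 NK cell genes, had a log2FC of -1.004 (SE 0.45). EPB42, a membrane skeleton protein of red cells and the only erythroid gene tested, had a log2FC of -0.96 (SE 0.38). JCHAIN, the chain that joins IgA and IgM units and 1 of 3 plasma cell genes, had a log2FC of 0.59 (SE 0.22). All 3 passed the call rule, with an edgeR adjusted P of 0.9998. GZMB was called 4 times when each of the 12 libraries was left out in turn, its log2FC was -0.66 without fertile 2 and -0.71 (SE 0.47) with voom, and it was called neither then nor with library size alone or the reproductive tract score in the model. EPB42 was called 9 times and JCHAIN 11 times, the exception for JCHAIN being the fit without subfertile 3. The summed plasma cell level was 291 to 491 CPM in fertile and 381 to 746 CPM in subfertile heifers. Besides JCHAIN it holds XBP1 (log2FC -0.024, SE 0.10) and PRDM1 (log2FC 0.089, SE 0.18), which were not called. Summed NK cell genes were at 86.6 to 173 and 85.1 to 133 CPM. Besides GZMB they are PRF1 (log2FC -0.40, SE 0.19) and EOMES (log2FC 0.052, SE 0.19), which were not called.

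In the 3 libraries high in ENSBTAG00000047029, BOLA-DOA and PAX5 had their 3 lowest values. BOLA-DOA was at 162 to 172 CPM there and at 205 to 268 CPM in the other 9 libraries. PAX5 was at 11.7 to 15.9 CPM there and at 19.6 to 35.9 CPM in the other 9. CD79A, at 399 to 698 against 335 to 719 CPM, and JCHAIN, at 298 to 561 against 202 to 657 CPM, did not separate these libraries. These genes were looked at after the 3 libraries were known, and 1.05% of the genes tested had these libraries as their 3 lowest and 0.961% as their 3 highest. The part of the B cell genes in the level of ENSBTAG00000047029 was not tested.

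**Figure D5:**
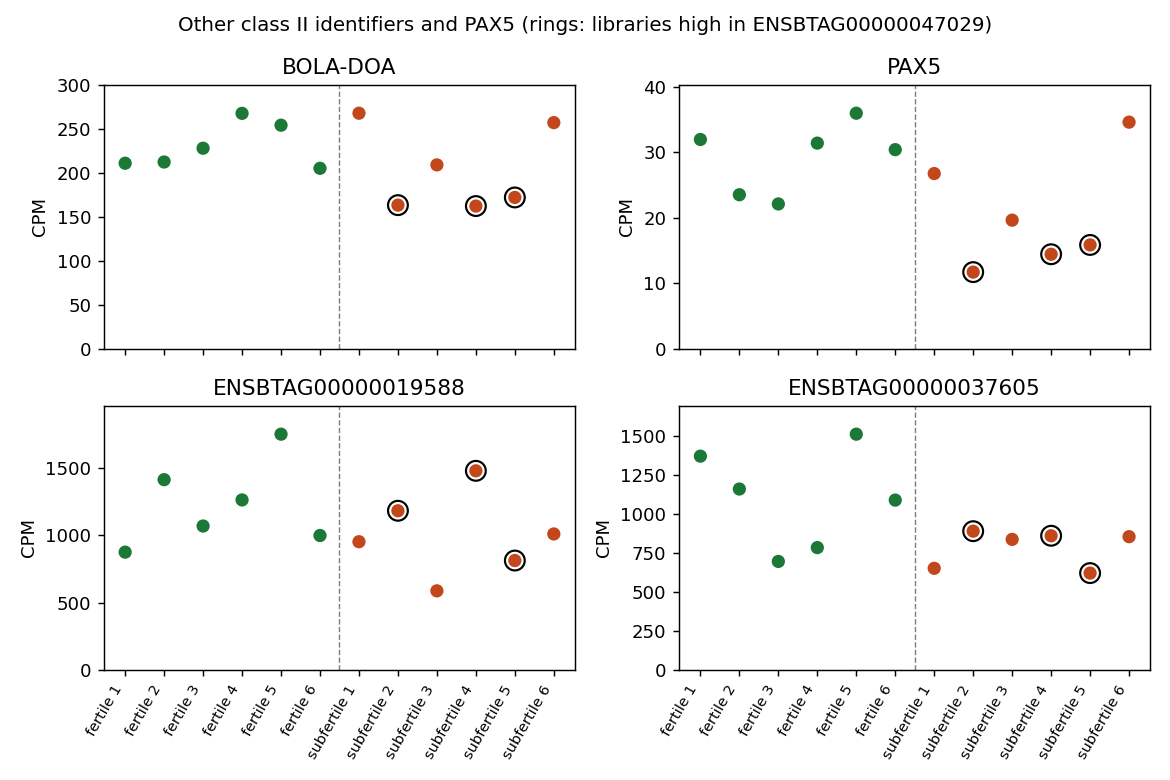
CPM of BOLA-DOA, ENSBTAG00000019588, ENSBTAG00000037605 and PAX5 in each of the 12 libraries, on linear axes from 0, with green for fertile, orange for subfertile and rings around the libraries high in ENSBTAG00000047029. BOLA-DOA and PAX5 are lowest in subfertile 2, 4 and 5, at 162 to 172 and 11.7 to 15.9 CPM, and the other identifiers are not.

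The genes whose order over the 12 libraries was most like that of each gene were ranked by Spearman rho of log2(CPM + 0.5), as a description. For BOLA-DQB these were ENSBTAG00000038128 (rho 0.91), DDX49 (0.83), ENSBTAG00000013919 (0.82), ENSBTAG00000015398 (0.82) and ENSBTAG00000015730 (0.82). Apart from ENSBTAG00000038128 they had nothing of the steps of BOLA-DQB, since DDX49, an RNA helicase gene, varied by 1.41-fold in all and ENSBTAG00000015398, the most variable, by 2.40-fold. The lowest rho values were those of ENSBTAG00000033197 (-0.85), ENSBTAG00000024269 (-0.84) and ENSBTAG00000053242 (-0.82).

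For ENSBTAG00000047029 the highest rho values were those of ENSBTAG00000009359 (0.92), ENSBTAG00000018105 (0.92), ENSBTAG00000017852 (0.90), CRYZ (0.86) and ENSBTAG00000014794 (0.85). ENSBTAG00000009359 ranged from 1.27 to 4.27 CPM and ENSBTAG00000018105 from 0.0964 to 1.56 CPM, so the latter rests on few reads. The lowest were ZNF469 (-0.87), ENSBTAG00000045751 (-0.86) and CBX1 (-0.85), a heterochromatin protein gene. ZNF469, a zinc finger gene, was the only one of these 16 genes called, with a log2FC of -0.83 (SE 0.32). Among all genes tested 1.40% were called. The 16 genes were picked for their likeness to genes chosen on a group difference, so a call among them is in part what that choice brings. ZNF469 ranged from 0.569 to 2.85 CPM, so it also rests on few reads. With 12 libraries and 13012 genes, high rho values arise among many genes, and these are given only as the closest.

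In the RefSeq gene table, whose assembly (ARS-UCD2.0) is not the one the reads were mapped to, the BOLA-DQB entry lies on chromosome 23 with GCM1, ELOVL5 and BOLA-DQA2 on the one side and BOLA-DQA5, BOLA-DQB1 and LOC100848815 on the other. Other DQ genes thus neighbour it, and BOLA-DQB1 has BoLA-DQB among its synonyms. Of these 6 neighbours only ELOVL5, a fatty acid elongase gene, could be matched to an identifier (ENSBTAG00000003359). Its level was 151 to 310 CPM over the 12 libraries, and with a log2FC of 0.27 (SE 0.17) it was not called. ENSBTAG00000047029 could not be matched to an entry of this table.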

How the data were processed

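Blood leukocyte RNA of 6 fertile and 6 subfertile heifers was sequenced as strand-specific poly(A) libraries, 1 per heifer. Mapping by the authors used STAR 2.7.5 and ARS-UCD1.3, and they deposited raw, unnormalized read counts per Ensembl gene, and the submitters' notes also name FastQC 0.11.9 and MultiQC 1.12. Which strand column was taken is not given in the sources used here. The replicates are separate heifers.

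Genes were kept with filterByExpr (minimum count of 10, given the groups), scaled with TMM and compared by a quasi-likelihood model in edgeR 4.0.16 (R 4.3.3) whose single term was the fertility group. A call needed an unadjusted P of 0.05 or less and an absolute log2FC of 0.5 or more. The fit was tested on simulated data, the outcome of which is not given here and not used above. Levels per library, steps, exact permutation tests and Spearman rho were computed in Python 3.11.15 with scipy 1.17.1. For steps and rho, 0.5 was added to CPM. Floors are 3 counts per library.

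The members and the gene lists were chosen with earlier results of these data known. Named genes are both members, every class II gene tested, called genes of the other lists, the 5 highest and 3 lowest rho for each member, and the 3 nearest genes on either side. The KEGG identifiers, the read ratio, and BOLA-DOA, PAX5, CD79A and JCHAIN in the libraries high in ENSBTAG00000047029 were added after values had been seen.

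Gene names came from the study's supplementary tables, which name 2911 identifiers, 2909 of them tested. No list had a name for 80% of its genes, so a list's counts describe its named genes only. The reference used here holds no genome of the files' build, and no sequences are printed. Alternatives were DESeq2 1.42.0, voom with limma 3.58.1, other scalings, filters and pseudocounts, the reproductive tract score in the model, Pearson r, and each library left out.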

Additional observations from a re-analysis of the deposited data

Results flagged for a closer look

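In 3 of the groups of 6 libraries 1 library stood far from the others on the log scale used for steps. On that scale its gap to its neighbour was above Dixon's critical share of the group's range. The CPM below are given as levels, and the shares in brackets are of the log scale and do not hold for CPM. ENSBTAG00000053242, among the genes with the lowest rho to BOLA-DQB, had 0.916 CPM in fertile 5 against 2.62 to 4.38 CPM in the other fertile libraries (0.638 of the log range). ENSBTAG00000017852, among those most like ENSBTAG00000047029, had 43.5 CPM in subfertile 3 against 52.3 to 58.1 CPM in the others (0.636). ENSBTAG00000045751, among those with the lowest rho to ENSBTAG00000047029, had 2.54 CPM in fertile 3 against 14.6 to 33.5 CPM in the others (0.663). Over the 50 groups looked at, chance flags about 1 in 20, so 3 such values are near that rate. BOLA-DQB and ENSBTAG00000047029 were not among them.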

How the results depend on the processing

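The direction of BOLA-DQB and of ENSBTAG00000047029 held in every alternative that gave a value, and at a minimum of 10 CPM in at least 9 libraries neither gene was tested. The log2FC of BOLA-DQB was -5.71 with the reproductive tract score in the model and -4.53 (SE 4.70) with voom, where the gene was not called, and ran from -6.17 to -5.03 with 1 library left out. That of ENSBTAG00000047029 was 2.33 with voom and 3.01 with the score, and ran from 2.91 to 3.53 with 1 library left out. Library size alone and pseudocounts of 0.1 and 2 left 4 and 3 libraries above the widest steps, and leaving out 1 library gave 3 to 4 and 2 to 3. Genes called numbered 624 when any gene with 1 count was tested and 37 at 10 CPM, and 118 (without fertile 6) to 365 (without fertile 1) with 1 library left out. Without a library, 0 to 1 of the 4 other KEGG identifiers were called, and ENSBTAG00000037605 was the one called. Of the 11 further lists 2 genes were called in place of 4 under library size alone, under 10 CPM and with the score, and 1 to 5 with 1 library left out, 1 each without fertile 5, fertile 6 or subfertile 3. The difference of BOLA-DOA ran from -0.27 to -0.12. Of the 5 genes most like BOLA-DQB, Pearson r shared 2, library size alone 2 and fits without a library 1 to 4. For ENSBTAG00000047029 these were 1, 3 and 3 to 5. The cause of these shifts was not tested. The KEGG identifiers, and for likeness the library size and left-out libraries, and for steps the left-out libraries, were alternatives chosen after seeing the data. No paired analysis was possible because the labels carry no replicate numbers shared between groups. Depth limits the 4 libraries with 0 to 8 reads on BOLA-DQB, whose levels are known only to within wide counting intervals.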
